A study of Mus musculus with 2 samples.

Results

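The 5 genes Tmc1, Tmc2, Tmie, Lhfpl5 and Cib2 encode parts of the hair cell mechanotransduction complex. They were taken from the study's gene annotation by symbol, as 192 rows with 8 transcripts, out of 28002 annotated genes. Of these, 27998 were mouse genes, and the rest, custom entries of the annotation, were left out of every comparison. All 5 were found, each under 1 gene identifier and with the biotype protein-coding. The annotation is that of a single-cell study of mouse cochleae at postnatal day 8, with 1 library from cochleae given the control virus Anc80-GFP and 1 from cochleae given Anc80-Ikzf2. Both libraries came from Myo15-Cre;Ai14 animals, in which Cre made under the Myo15 promoter switches on tdTomato in hair cells. Cells with tdTomato were sorted and captured with a kit that primes on the poly(A) tail and reads transcript 3' ends. No value of either library, no cell number and no depth was analysed here, so nothing below concerns expression or the effect of Ikzf2. Positions are on mouse assembly GRCm38 and, being annotated, carry no sampling error.

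When sound bends the stereocilia of a hair cell, tip links pull on ion channels at the stereocilia tips, and the resulting current starts the electrical signal of hearing. TMC1 and TMC2 are the multi-pass membrane proteins that form the channel pore; in the cochlea TMC2 is made early after birth and TMC1 remains. TMIE, a small membrane protein, and LHFPL5, a protein with 4 membrane spans that binds the tip link protein protocadherin 15, belong to the same complex. CIB2 is an EF-hand protein of the calcium and integrin binding family that binds the TMC proteins. Loss of these proteins impairs or abolishes transduction in mice, with redundancy between TMC1 and TMC2 in young hair cells.

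The pore genes were much larger than the genes of their partners. Tmc1 (ENSMUSG00000024749) occupied 170745 bases of chromosome 19, minus strand (20783458 to 20954202), and Tmc2 (ENSMUSG00000060332) 69252 bases of chromosome 2, plus strand (130195194 to 130264445). Tmie (ENSMUSG00000049555) spanned 14403 bases of chromosome 9, minus strand (110865711 to 110880113). Cib2 (ENSMUSG00000037493), on the same strand and chromosome (54544794 to 54560218), spanned 15425 bases, but 56305492 bases separated it from Tmie. Lhfpl5 (ENSMUSG00000062252), on chromosome 17, plus strand (28575718 to 28583593), was the shortest at 7876 bases, and Tmc1 was 21.7 times as long. Among 21990 protein-coding genes with a coding transcript, Tmc1 stood at percentile 94.6 and Tmc2 at percentile 83.7 for span. The other 3 genes stood below the median of 16537 bases, at percentiles 32.2 to 48.1.

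**Figure D1:**
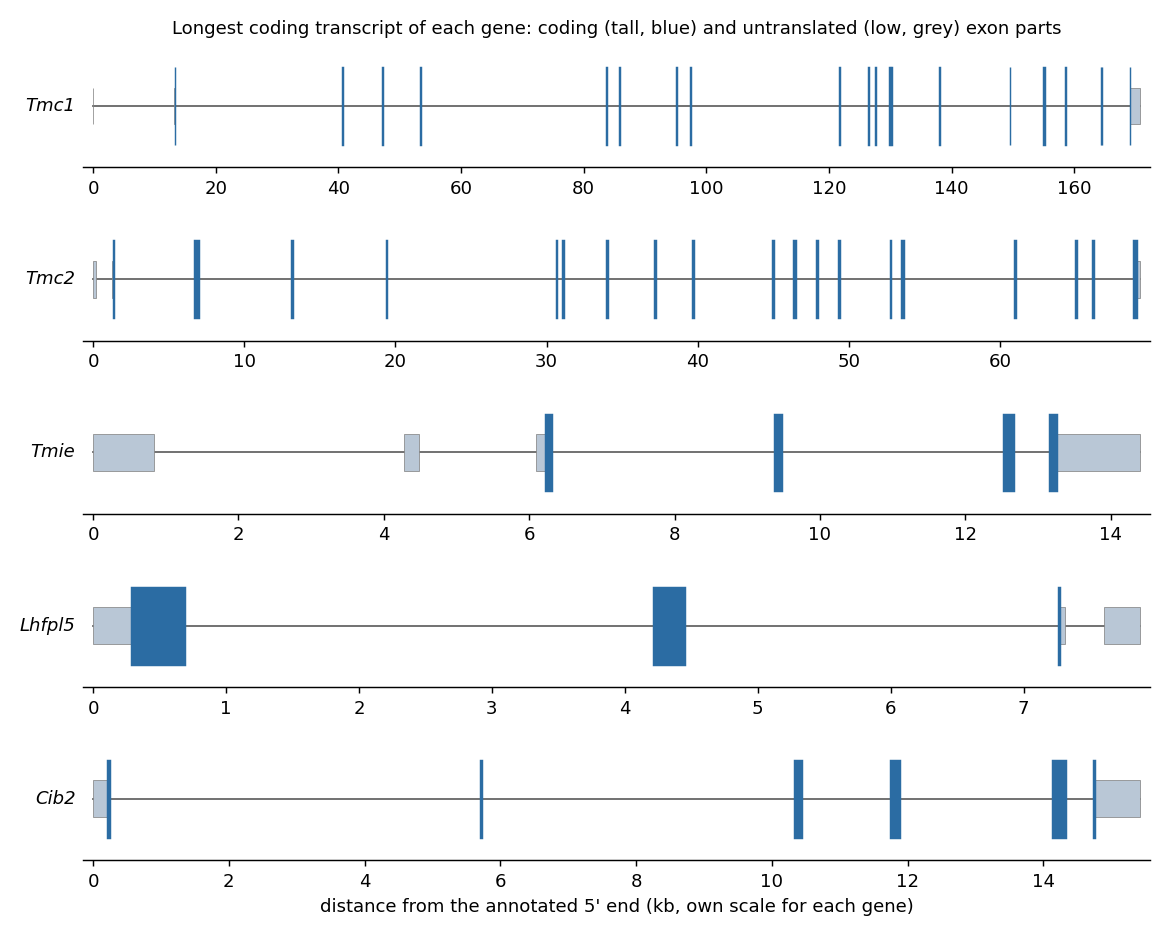
Longest coding transcript of each gene, drawn from its annotated 5' end along its own direction (x axis in kb, a separate scale for each gene); tall blue boxes are coding and low grey boxes untranslated parts of exons, and the line is the span. Tmc1 and Tmc2 have 20 and 19 coding exons spread over long introns, Tmie starts with 2 exons that hold no coding sequence, and Lhfpl5 has an intron after its stop codon.

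The difference in span came from introns. Tmc1 had 21 exons, 20 of them with coding sequence, and its exons added up to 4073 bases, so that introns made up 97.6% of the span. Its longest intron, the fifth, was 30297 bases long. Tmc2 had 20 exons, of which 19 were coding, 3216 exonic bases and introns over 95.4% of the span. Tmie and Cib2 had 6 exons each, with 4 coding exons in Tmie and 6 in Cib2, and Lhfpl5 had 4 exons with 3 coding. The intron share was 80.5% in Tmie, 84.2% in Lhfpl5 and 90.7% in Cib2.

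The coding sequences fell into a long and a short class. Tmc2 coded for 888 amino acids in 2667 bases, stop codon included, and Tmc1 for 757 amino acids in 2274 bases. Lhfpl5 coded for 219 amino acids in 660 bases, Cib2 for 187 in 564 bases and Tmie for 153 in 462 bases. Against a median of 1170 coding bases, the pore genes stood at percentiles 86.2 and 80.9 and the 3 partners at 19.9, 14.8 and 10.0. Tmie was the gene in which coding sequence took the smallest part of the transcript, 16.5%, against 82.9% in Tmc2.

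**Figure D2:**
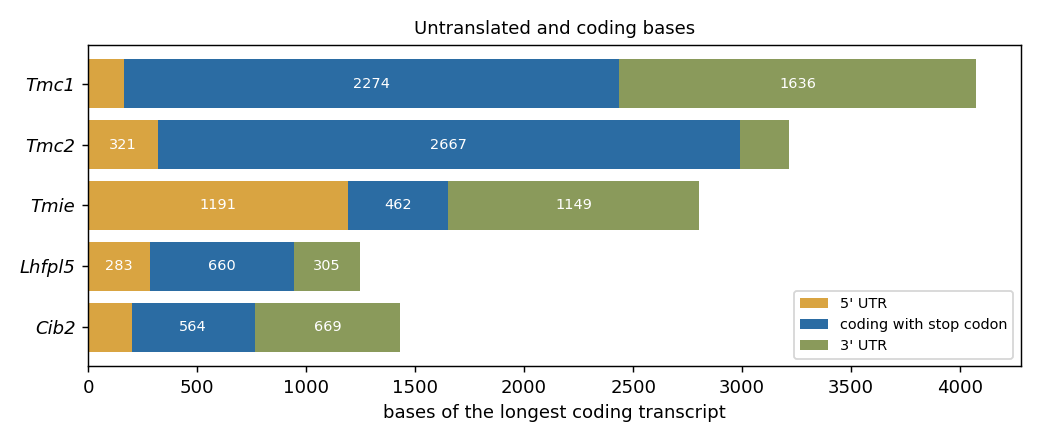
Bases of 5' UTR, coding sequence and 3' UTR in the longest coding transcript of each gene (x axis in bases, numbers inside the bars where they fit). The Tmie transcript of 2802 bases holds 462 coding bases between 1191 bases of 5' UTR and 1149 bases of 3' UTR, while Tmc2 has 2667 coding bases and 228 bases of 3' UTR.

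All 5 genes had a single coding isoform. Tmc1, Lhfpl5 and Cib2 had 1 transcript each, as did 36.4% of protein-coding genes, and 54.4% of protein-coding genes had 1 distinct coding sequence. Tmc2 had 2 transcripts, Tmc2-001 and Tmc2-201, with the same 2667 coding bases. Tmc2-201 was drawn from the start codon to the stop codon with no UTR, so it does not show where such a transcript begins or ends. Tmie had 3 transcripts, of which Tmie-001 alone was coding. Tmie-003, with a retained intron, and Tmie-004, a processed transcript, were short (456 and 358 bases), and all their exons lay before its start codon. The longest coding transcript of each gene had support level 1, the best that the annotation gives, and a consensus coding sequence entry.

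Other genes of the mechanotransduction machinery and hair bundle were annotated with more isoforms. In a list of 11 such genes, all found, the number of transcripts ran from 1 to 41 with a median of 8, and 3 of the 11 had a single coding isoform. The listed genes were also larger, with medians of 32 coding exons and 1063 amino acids against 6 and 219 in the 5 genes. The numbers of isoforms were not adjusted for this. Pcdh15 and Cdh23, the protocadherin and cadherin genes of the tip link, had 41 and 16 transcripts with 28 and 5 coding isoforms. Ush1g, a scaffold protein gene of the upper tip link end, and Clrn2, a clarin gene, had 1 transcript each. Tomt, whose product is needed to bring TMC proteins to the bundle, had 2 transcripts and 1 coding isoform. Within the TMC family, Tmc3 to Tmc8 had 4 to 9 transcripts each, more than Tmc1 or Tmc2.

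**Figure D3:**
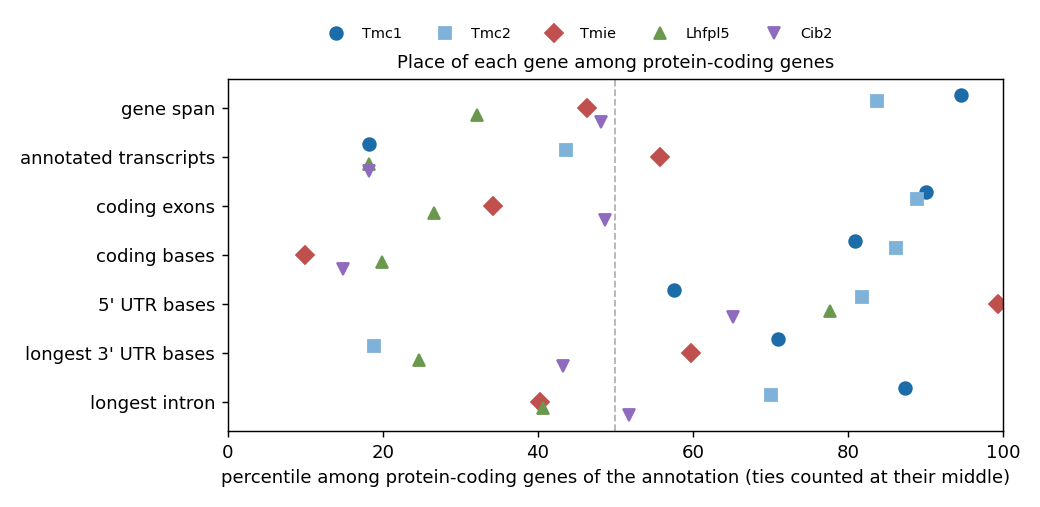
Percentile of each gene among the protein-coding genes of the annotation (x axis) for 7 measures of the gene model (y axis); the dashed line is the median, and ties are placed at their middle. Tmc1 and Tmc2 lie above the median for span, coding exons and coding bases, Tmie lies at percentile 99.3 for 5' UTR length, and Tmc2 and Lhfpl5 lie lowest for 3' UTR length, at percentiles 18.9 and 24.7.

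Tmc1 and Tmc2, on different chromosomes, shared an exon plan through most of the coding sequence. Exons 6 to 19 of Tmc1 were set beside exons 5 to 18 of Tmc2, and in all 14 pairs the coding sequence entered the exon at the same phase, that is, at the same base of a codon. The range was bounded by the first and the last pair of equal length and phase. In 11 pairs the length was also the same, with 91, 82, 107, 99 and 143 bases in the first run of 5, 180 bases in the middle and 129, 68, 240, 126 and 79 bases in the second run of 5. The other 3 pairs differed by 3, 6 and 21 bases, whole codons as the equal phases require. The 11 equal exons held 1344 bases, 59.1% of the coding sequence of Tmc1 and 50.4% of that of Tmc2. Toward the ends the lengths parted while the phase stayed the same. Tmc1 exons 4, 5, 20 and 21 had 163, 129, 52 and 23 coding bases and their counterparts in Tmc2 313, 153, 118 and 218. Each of these pairs also entered at the same phase and so differed by whole codons. The coding bases before them, in exons 2 and 3 of Tmc1 and exon 2 of Tmc2, were not paired.

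**Figure D4:**
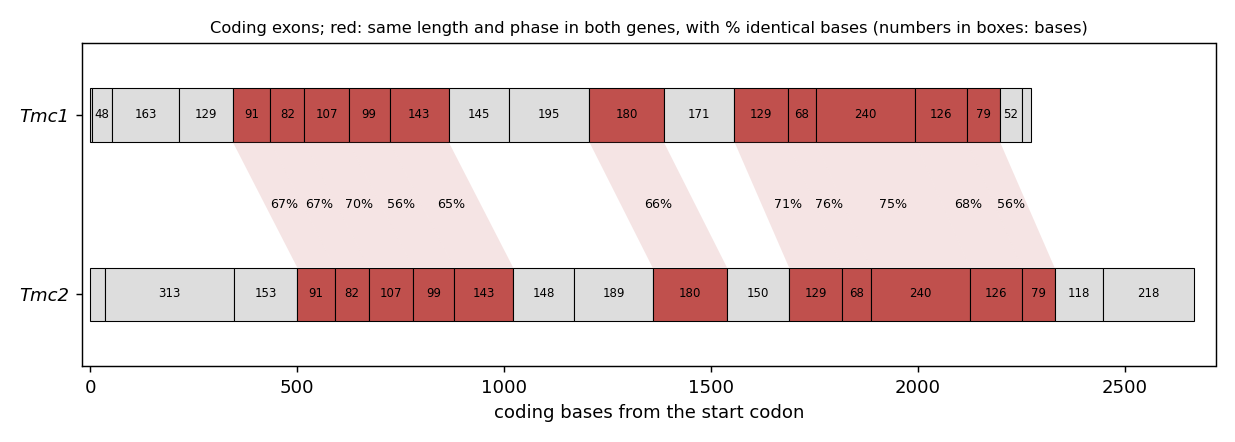
Coding exons of Tmc1 (top) and Tmc2 (bottom) in order from the start codon (x axis in coding bases); boxes are exons with their number of coding bases, red where length and phase are the same in both genes, and the percentages are the identical bases of each such pair. The 11 red pairs form runs of 5, 1 and 5 exons, and their identity lies between 55.6 and 76.5%.

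Base by base, without gaps, the 11 equal exons were 67.8% identical (911 of 1344 bases). Identity was 73.0% at the first, 85.7% at the middle and 44.6% at the last base of codons. It was lowest in the pairs of 99 and 79 bases, at 55.6% and 55.7%, and highest in the exon of 68 bases, at 76.5% (52 of 68), followed by that of 240 bases at 75.0%. The exon of 68 bases is shown because it is the most alike of the 11 pairs; capitals mark the bases that differ. It is exon 16 of Tmc1 (chr19:20804599-20804666, minus strand) and exon 15 of Tmc2 (chr2:130247915-130247982, plus strand), both read 5′ to 3′.
Tmc1 exon 16: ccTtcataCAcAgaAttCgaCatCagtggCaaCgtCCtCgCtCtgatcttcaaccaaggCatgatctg
Tmc2 exon 15: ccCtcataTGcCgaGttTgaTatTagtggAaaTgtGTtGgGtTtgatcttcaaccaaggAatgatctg
The longest stretch that the complete coding sequences had in common was 22 bases. Between Tmc1 and Tmc3 it was 27 bases, and between Tmc2 and Tmc3 21 bases.

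Among the other TMC genes, the plan of Tmc3 came closest to that of the pore genes. Of the 23 coding exons of Tmc3, 8 had the length and phase of a Tmc1 exon in the same order, and 9 those of a Tmc2 exon. For Tmc4 to Tmc8 the number was 1 or 2 with either gene. A single combination, 79 bases starting after the second base of a codon, occurred in all 8 TMC genes, with 1 to 4 coding exons after it. In Tmc3 the last of these held 844 of the 3393 coding bases, so the exon was not near the end of the coding sequence there. Tmc3 and Tmc5 each had 2 exons of this length and phase, and the one nearer the stop codon was used. Its sequence was far less alike than its length: 4 of the 79 positions held the same base in all 8 genes, and the identity with Tmc1 ran from 38.0% in Tmc6 and Tmc8 to 55.7% in Tmc2. The exon is shown for Tmc1 (chr19:20789792-20789870, minus strand), Tmc2 (chr2:130260169-130260247, plus strand), Tmc3 (chr7:83616733-83616811, plus strand) and Tmc8 (chr11:117792089-117792167, plus strand), as the exon that the whole family has in common; capitals mark the 4 bases that were the same in all 8 genes.
Tmc1 exon 19: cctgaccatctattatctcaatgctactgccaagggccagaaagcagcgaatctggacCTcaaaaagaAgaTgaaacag
Tmc2 exon 18: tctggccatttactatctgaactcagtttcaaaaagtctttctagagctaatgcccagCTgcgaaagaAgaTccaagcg
Tmc3 exon 19: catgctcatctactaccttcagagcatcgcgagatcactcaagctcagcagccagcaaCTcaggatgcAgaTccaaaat
Tmc8 exon 15: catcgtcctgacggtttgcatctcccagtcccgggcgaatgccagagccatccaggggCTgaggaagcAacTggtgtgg

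The introns did not follow the exons. Of the 13 introns between the 14 exon pairs, 8 were longer in Tmc1, and the ratio of Tmc1 to Tmc2 ran from 0.0947 to 25.8 with a median of 1.67. Intron 7 of Tmc1 had 9229 bases against 358 in its Tmc2 counterpart, while intron 13 of Tmc1, the shortest of that gene, had 126 bases against 1330. Together these introns took 78842 bases in Tmc1 and 43851 bases in Tmc2, so most of the 170745 bases of Tmc1 lay outside them.

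The start of translation in Tmc1 was split from the rest of its coding sequence. Exon 1 of Tmc1 (59 bases) held no coding sequence, and exon 2 ended 1 base after the start codon, so the first coding exon carried 4 coding bases. Of 17852 genes with start and stop codon and more than 1 coding exon, 2.09% had as few. An intron of 27354 bases followed. In Tmc2 the start codon also lay in exon 2, with 34 coding bases there, and in Tmie it lay in exon 3. A start codon outside exon 1 was found in 32.5% of protein-coding genes with both codons annotated, and one in exon 3 or later in 7.04%. Lhfpl5 and Cib2 began coding in exon 1, with 412 and 51 bases.

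The bases around the 5 start codons are shown because translation start sites in mammals often have A or G 3 bases before the start codon and G right after it; 12 bases stand on either side, with the start codon in capitals.
Tmc1: ctcaactcttttATGttgcaaatccaa
Tmc2: actctggtaaccATGagcccccagtta
Tmie: aaacgagagaacATGgccgggaggcag
Lhfpl5: gcggccttcgccATGgtgaagttgctg
Cib2: atcgcggtcaccATGgggaacaagcag
Tmc2, Tmie, Lhfpl5 and Cib2 had A or G 3 bases before the start codon, as did 84.2% of 18025 genes, whereas Tmc1 had T there. Tmie, Lhfpl5 and Cib2 also had G right after it, a combination found in 41.4% of genes. How well any of these codons is used was not measured.

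Tmie had the longest 5' UTR by far. Its 1191 bases lay over all of exon 1 (844 bases), all of exon 2 (212 bases) and the start of exon 3, and 162 of 21990 protein-coding genes had a longer one in their longest coding transcript (percentile 99.3, median 131 bases). It held 11 ATG triplets, a number reached by 1.78% of genes. That share takes no account of 5' UTR length, so it does not show that ATG triplets are frequent for a 5' UTR this long. The 5' UTR was 321 bases in Tmc2, 283 in Lhfpl5, 200 in Cib2 and 163 in Tmc1, with 2, 2, 1 and 2 ATG triplets. At least 1 such triplet was found in 51.9% of genes.

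Exon 1 of Tmie overlapped a gene on the other strand, head to head. The first exon of Als2cl started inside exon 1 of Tmie at 110879870 and ran the opposite way, so that the exons of the genes had 244 bases in common. No coding base of either gene lay in the overlap. An exon of an opposite-strand gene over exon 1 was found for 5.68% of protein-coding genes, and for 1 of the 5 genes here. No source used here states whether the counting used the strand; without it, reads from such an overlap cannot be assigned to 1 gene.

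The windows at the 5' ends divided the genes by base composition. RefSeq windows of 300 bases, from 250 before to 50 after the start, were given for Tmc1, Tmie, Lhfpl5 and Cib2, on GRCm38.p6. The Tmc1 window had 42.0% G and C (percentile 14.5 of 32851 windows, median 52.7%) and a single CG dinucleotide. Tmie had 73.7% with 39 CG, Lhfpl5 70.7% with 28 CG and Cib2 71.3% with 20 CG, all above the median of 7. The first 200 bases of the windows of Tmc1 (chr19:20954253-20954452, minus strand) and Cib2 (chr9:54560241-54560440, minus strand) are shown for this contrast, with CG in capitals; there was none in Tmc1 and there were 11 in Cib2.
Tmc1: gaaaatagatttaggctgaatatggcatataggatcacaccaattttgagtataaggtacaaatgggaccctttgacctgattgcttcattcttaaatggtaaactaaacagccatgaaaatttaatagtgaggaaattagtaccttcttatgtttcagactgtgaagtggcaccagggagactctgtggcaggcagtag
Cib2: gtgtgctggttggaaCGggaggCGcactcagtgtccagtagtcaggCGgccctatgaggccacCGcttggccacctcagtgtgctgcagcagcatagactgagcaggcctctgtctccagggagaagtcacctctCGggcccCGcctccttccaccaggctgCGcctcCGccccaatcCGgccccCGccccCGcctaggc
Among letters searched on both strands, GGGCGG, the core of the GC box, occurred 4 times in the Cib2 window, 3 times in Tmie, once in Lhfpl5 and not in Tmc1, against 35.7% of all windows with at least 1. CCAAT occurred once each in Tmc1 and Cib2 (37.4% of windows), and CAGNTG, an E-box form, once each in Tmie and Lhfpl5 (51.4%). TATAAA (13.6%) and TGGGAA, a core of Ikaros family sites (25.6%), were in none of the 4 windows. The annotated 5' end of Tmc1 coincided with the RefSeq start, and those of Lhfpl5, Cib2 and Tmie lay up to 40 bases before it.

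The 3' ends matter most for a kit that reads them. The 3' UTR was 1636 bases in Tmc1, 1149 in Tmie, 669 in Cib2, 305 in Lhfpl5 and 228 in Tmc2, against a median of 851 bases over the 19931 genes with one. The pore genes thus stood at opposite ends, Tmc1 with 7.18 times the 3' UTR of Tmc2. The last 30 bases of each longest coding transcript are shown, because a transcript end is usually preceded by AATAAA or ATTAAA, the signals for cleavage and polyadenylation; capitals mark such a hexamer.
Tmc1: aatgcagcaAATAAAgatcgtgttgatttc
Tmc2: ccagacttgaggaggcagggatgaggccat
Tmie: cacaacaatacatAATAAAaggcgcctcag
Lhfpl5: agagaaaaacaaaaccagaaatcccttttt
Cib2: ctagaAATAAAacactttttgtgtgctgca
AATAAA lay in the last 50 bases of Tmc1, Tmie and Cib2, starting 21, 17 and 25 bases before the end. Tmc2 and Lhfpl5 had neither hexamer there. One or the other was found in 75.1% of 18504 genes, and AATAAA in 61.7%. Looking over the last 100 bases found no further one of the 5 genes (77.2% of all genes). AATAAA lying whole between 40 and 10 bases before the end was found in the same 3 genes and in 57.9% of all. Tmc2 had neither hexamer anywhere in its 3216 bases. The letters do not show where transcripts end in hair cells, which was not measured here.

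Lhfpl5 was the gene with an intron after the stop codon, as in 854 of 21328 protein-coding genes with both codons annotated (4.0%). Its exon 3, 46 bases long, held the last 11 coding bases and 35 bases of 3' UTR, and an intron of 298 bases divided it from the last exon of 270 bases. So few coding bases in the last coding exon were found in 1.76% of genes. In the genes with such an intron the stop codon lay a median of 17 bases before the junction, and in 693 of them at 35 bases or less. Cib2 and Tmc1 had 22 and 23 bases in their last coding exon, which also held their whole 3' UTR. With Lhfpl5, Cib2 was among the 3.88% of genes with 22 or fewer.

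A later annotation of the same assembly, GENCODE M21, changed the ends of Lhfpl5 and the isoforms of Tmc1 and left the other 3 genes as they were. The deposited transcripts of Tmc1, Tmc2, Tmie and Cib2 had identical exons and coding sequence in M21. Lhfpl5 had 3 transcripts there, with the same 660 coding bases, and 2 of them ended 1488 and 2086 bases further, to a longest 3' UTR of 599 bases. Of protein-coding genes, 9.97% had a coding 3' end moved outward by over 100 bases. The transcript with the outermost end had AATAAA starting 21 bases before its end, unlike the deposited model and unlike the other extended transcript, which had neither hexamer in its last 50 bases. Both extended transcripts carry M21's tag for an alternative 3' UTR and its tag not_organism_supported, and neither has a support level. Its last 30 bases are shown for comparison, with the hexamer in capitals.
Lhfpl5 outermost end: aataagcagAATAAAaatcagcgaaaccaa
A read from this end would lie outside the deposited Lhfpl5 model, in the 4054 bases that separate it from Srpk1.

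For Tmc1, M21 held 4 transcripts with 4 distinct 5' ends, against 1 here, or 3 once ends within 100 bases were merged. The coding one among the 3 added started in intron 15 of the deposited model, 139535 bases after its 5' end, with a 5' end that M21 tags as supported by cap analysis. It had 7 exons and the same 3' end and 3' UTR of 1636 bases, and no support level. Its 639 coding bases comprised 588 in common with Tmc1-201, all in the same frame (25.9% of the coding sequence), after 17 codons of its own. Of the added transcripts with a retained intron, 1 also began in intron 15 and 1 in exon 10. More transcripts in M21 than here were found for 24.7% of protein-coding genes, and for Tmc1 and Lhfpl5 of the 5. Since the long and the short coding transcript have the same last exon, reads from that exon cannot tell them apart.

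No other gene on the same strand had an exon in the last 500 bases of any transcript of the 5 genes, where 3.24% of protein-coding genes have one. On the opposite strand, Sh2d7, which encodes an SH2 domain protein, met Cib2 tail to tail: its last exon ended inside the 3' UTR of Cib2 at 54545020, and 227 exonic bases were common to both, none of them coding. These are the last 227 bases of Cib2, at the end that the kit reads. Without the strand, reads from them cannot be assigned to 1 gene. Counting both strands, 1 of 5 genes here and 14.3% of protein-coding genes had another gene in the window. So Cib2 carried its overlap at the 3' end and Tmie at the 5' end, and the spans of Tmc1, Tmc2 and Lhfpl5 overlapped no gene. An overlap on either strand was found for 28.6% of protein-coding genes.

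**Figure D5:**
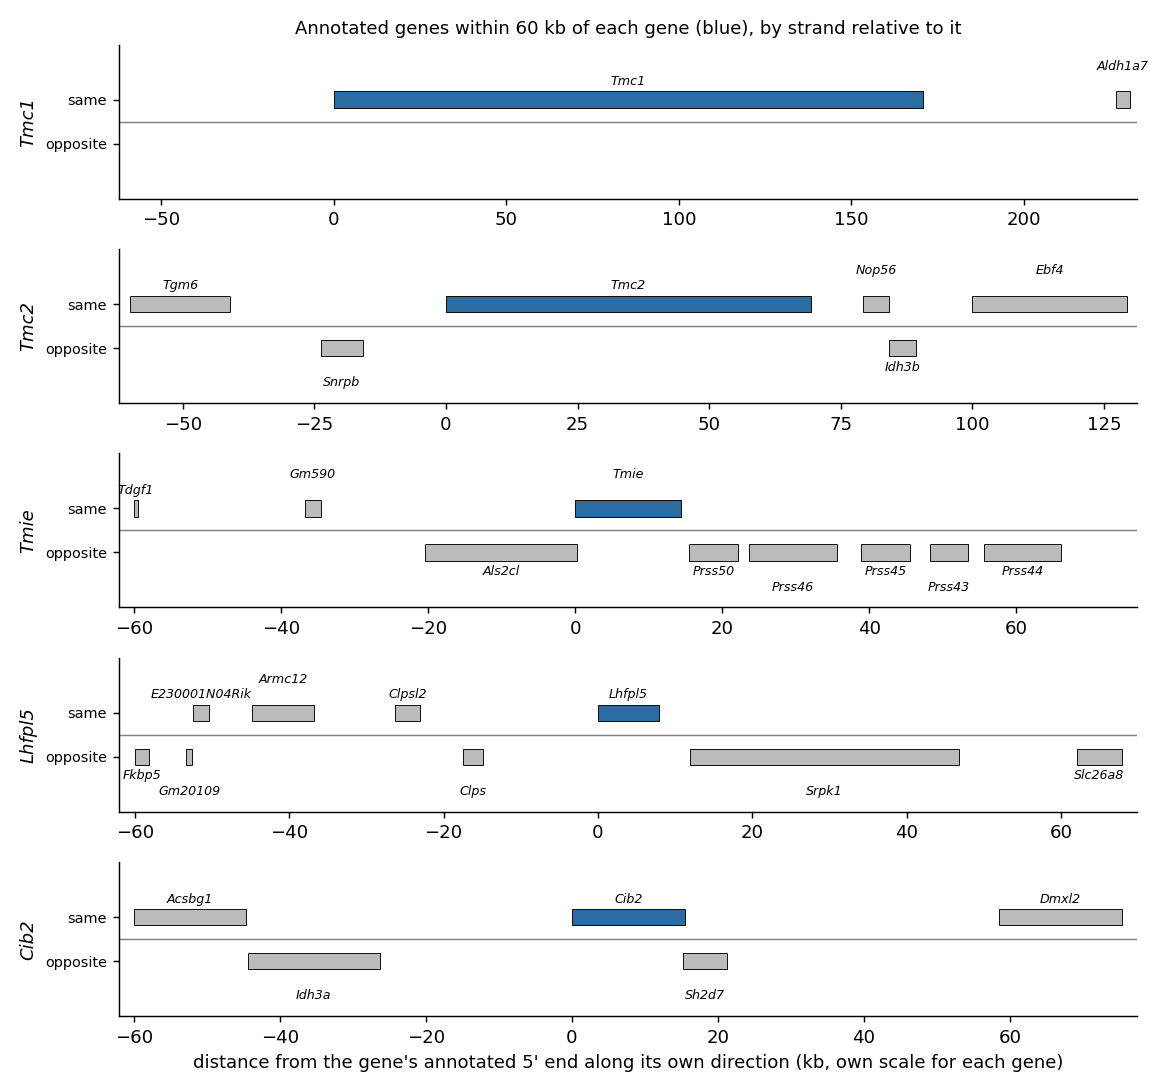
Genes of the annotation within 60 kb of each of the 5 genes (blue), by distance from its annotated 5' end along its own direction (x axis in kb, a separate scale for each gene) and by strand relative to it (y axis). Als2cl overlaps the 5' end of Tmie and Sh2d7 the 3' end of Cib2, both on the opposite strand, and the nearest gene to Tmc1 lies 55895 bases away.

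In the deposited annotation, Tmc1 stood apart from its neighbours. Aldh1a7, an aldehyde dehydrogenase gene, lay 55895 bases downstream, and Zfand5, a zinc finger gene, 318075 bases upstream. A nearest gene as far away or farther was found for 6.68% of 21985 protein-coding genes. With all biotypes of M21, however, the antisense gene AC102790.1 lay over the span of Tmc1. Tmc2 lay between Snrpb, a spliceosome protein gene on the opposite strand 15790 bases upstream, and Nop56, a gene of ribosomal RNA modification on the same strand 9984 bases downstream. Beyond the overlapped Als2cl, Tmie had Prss50, of the serine protease family, 1081 bases downstream on the opposite strand. The nearest genes to Lhfpl5 were Srpk1, a kinase gene, 4054 bases downstream and Clps, the colipase gene, 14951 bases upstream, both on the opposite strand. Cib2 had Idh3a, of the citric acid cycle, 26292 bases upstream and Dmxl2 43033 bases downstream.

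Lhfpl5 and Cib2 also shared exons of equal plan with relatives. The second exon of Lhfpl5, 237 bases long, had a counterpart of the same length and phase in Lhfpl3 and Lhfpl4 but not in Lhfp, Lhfpl1 or Lhfpl2. Its bases were 64.6% identical with Lhfpl3 and 63.7% with Lhfpl4, and the complete coding sequences had no stretch of more than 20 bases in common. Exon 2 of Lhfpl5 (chr17:28579931-28580167, plus strand) and exon 3 of Lhfpl4 (chr6:113176446-113176682, minus strand) are shown, with the differing bases in capitals.
Lhfpl5 exon 2: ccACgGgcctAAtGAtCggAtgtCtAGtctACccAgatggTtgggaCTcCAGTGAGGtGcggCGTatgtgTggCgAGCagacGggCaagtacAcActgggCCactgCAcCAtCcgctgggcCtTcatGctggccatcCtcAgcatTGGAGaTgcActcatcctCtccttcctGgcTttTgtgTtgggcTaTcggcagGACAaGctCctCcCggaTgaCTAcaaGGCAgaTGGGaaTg
Lhfpl4 exon 3: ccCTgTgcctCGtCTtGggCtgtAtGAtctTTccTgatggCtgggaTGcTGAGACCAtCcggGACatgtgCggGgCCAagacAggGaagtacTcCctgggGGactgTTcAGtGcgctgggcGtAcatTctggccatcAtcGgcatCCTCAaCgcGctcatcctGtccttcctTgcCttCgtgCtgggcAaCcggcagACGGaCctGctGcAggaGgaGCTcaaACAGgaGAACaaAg
Lhfpl5 spanned 7876 bases, the least of the 6 LHFPL genes, whose largest, Lhfpl3, spanned 529539 bases for 228 amino acids against 219. Lhfpl5 also had the shortest 3' UTR of the family, 305 bases against 787 to 3768 bases.

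Cib2 matched Cib3 in its last 4 coding exons, of 112, 148, 196 and 22 bases, which held 84.8% of its coding sequence. With Cib1 it matched in 3, the exons of 51, 35 and 22 bases, and with Cib4 in the exon of 35 bases. Over the 4 exons, 301 of 478 bases (63.0%) were the same in Cib2 and Cib3, with 90.9% in the last coding exon and 56.2% in that of 112 bases. The latter, exon 3 of Cib2 (chr9:54549781-54549892, minus strand) and exon 2 of Cib3 (chr8:72210373-72210484, minus strand), is shown as the least alike of the 4, with the differing bases in capitals.
Cib2 exon 3: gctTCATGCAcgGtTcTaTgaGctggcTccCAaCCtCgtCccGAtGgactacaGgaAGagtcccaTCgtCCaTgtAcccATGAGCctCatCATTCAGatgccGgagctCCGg
Cib3 exon 2: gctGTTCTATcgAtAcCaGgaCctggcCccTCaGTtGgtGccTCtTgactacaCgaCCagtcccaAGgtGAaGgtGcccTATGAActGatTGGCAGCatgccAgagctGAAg
Cib3, which encodes the CIB family member known from vestibular hair cells, was annotated with 160 amino acids against 187 and with a first coding exon of 5 bases. The 3' UTR of Cib2, 669 bases, was the longest of the 4 CIB genes (74 to 218 bases in the others).

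Words of 30 bases were used to ask whether any transcript of the 5 genes has stretches in common with transcripts of other genes in M21, in the same orientation. None of the 5 had a shared word lying whole in its last 500 bases, where 28.4% of 20547 genes had at least 1, and Tmie and Lhfpl5 had none at all. In Tmc1, Tmc2 and Cib2 some words were shared, as in 52.3% of genes. In Tmc1 they covered 57 bases of 3' UTR with repeats of TTTA, and in Cib2 36 bases of 3' UTR with repeats of TAAAA. In Tmc2 they covered 30 and 97 bases of exon 1 and 51 coding bases of exon 11. The Cib2 stretch, at bases 913 to 948 of 1433, reached into the last 500 bases.

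How widely the stretches were shared differed. Words of the 97 bases in exon 1 of Tmc2, which is 201 bases long and untranslated, occurred in transcripts of 891 other genes. Those of the Tmc1 stretch occurred in 110 genes, those of the Cib2 stretch in 14 and those of the 30 bases in Tmc2 exon 1 in 13. The last of these stretches (chr2:130195213-130195242, plus strand) is shown in full.
Tmc2 exon 1: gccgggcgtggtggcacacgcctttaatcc
The 51 coding bases of exon 11 (chr2:130240136-130240186) were found in full in 1 other gene of M21, Gm45907, a processed pseudogene of 193 bases on chromosome 8 (75294570 to 75294762). These stretches were chosen after their values were seen.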

How the data were processed

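The series holds 2 libraries, GFP and Ikzf2, grouped by the treatment label, with 1 per group and no replicates. Analysis rested on 1 table, a gene annotation that the authors deposited, which follows GRCm38 with patch 4 per the file headers and holds positions in bases and 0 columns of per-sample values. Cell Ranger 2.0.2 is listed in the submitters' processing notes, with no role; no source used here names the aligner. Depth therefore concerns no value, and no test was made: percentiles and shares over protein-coding genes are descriptions.

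The longest coding transcript had the most coding bases, stop codon included. The 3' window was the last 500 exonic bases of every transcript, with an overlap of at least 1 base. Neighbours were genes of any biotype in the file. GENCODE M21 served as second annotation and as source of transcript sequences, read by position: 20547 of 21990 longest coding transcripts (93.4%) were covered in full, with all 5 genes. Promoter windows were RefSeq's, with 4 of the 5 genes found. Equal exons were compared without gaps. Protein sequences were not used here. Named were the 5 genes, their overlapping and nearest genes, their families and 11 related genes, with extremes only of the latter groups; Pjvk was found under the symbol Dfnb59. Genes and lists were chosen with earlier results of these data known.

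Python 3.11.15, NumPy 2.4.6 and Matplotlib 3.10.9 were used. A check of gene model measures on simulated data came out right for all 200 genes. It is not taken as a test of exon phases after the first coding exon, on which the exon pairs rest, or of shared words. For the other measures no such result is given. The alternatives were M21 models, coding or consensus transcripts only, complete coding sequences only, merged 5' ends, median 3' UTRs, windows of 200 and 1000 bases, either strand, protein-coding neighbours, and a hexamer window of 100 bases or AATAAA alone.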

Additional observations from a re-analysis of the deposited data

How the results depend on the processing

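Of 76 values under alternatives to 37 results, 66 were identical to those reported and 67 within 1.5 times of them. Many of these could not differ. Tmc1, Lhfpl5 and Cib2 have 1 deposited transcript each, so choosing among deposited transcripts or merging their 5' ends had to return the same value. Tmie has 1 coding transcript, so choosing among its coding transcripts changed nothing either. Under GENCODE M21 the distinct 5' ends rose to 4 in Tmc1 and 3 in Lhfpl5, the coding isoforms of Tmc1 to 2 and the longest 3' UTR of Lhfpl5 to 599 bases. With M21 ends within 100 bases merged, an alternative chosen after seeing the data, the 5' ends numbered 3 in Tmc1 and 2 in Lhfpl5. With all biotypes of M21, also chosen after seeing the data, 1 gene lay over the span of Tmc1, the antisense gene AC102790.1, where the deposited annotation has none. These follow from added models. With coding transcripts only, Tmie had 1 distinct 5' end in place of 3, because its other transcripts are non-coding. Counting either strand, 1 gene, Cib2, had another gene in its 3' window in place of 0. Windows of 200 and 1000 bases, and a hexamer window of 100 bases or AATAAA alone, left the counts as they were (0 and 3 of the 5 genes). No paired analysis was possible because GFP and Ikzf2 have 1 library each, with no expression values read. Leaving out replicates and comparing GFP with Ikzf2 were not run either. Planned protein comparisons were not run.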
